A study of Mus musculus with 12 samples.

Results

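The iron transport and storage genes examined here are 8 mouse genes of the 49671 counted in every library: Slc40a1, Tfrc, Fth1, Ftl1, Hmox1, Slc11a2, Aco1 and Ireb2. They were matched by symbol to the Ensembl identifiers of the count tables, and all 8 were found. The set was chosen by the measured read counts of Slc40a1, whose RNA rises strongly with Lap2 siRNA in these libraries, and the other 7 genes were added for their part in iron handling. The values of Slc40a1 are therefore given as a description, without a test, in every comparison.

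The RNA-seq libraries, 3 in each of 4 groups, came from NIH 3T3, a fibroblast line established from mouse embryos that grows without limit in culture. Cells transfected with a negative control siRNA or with siRNA against Lap2, the lamina proteins encoded by Tmpo, were kept in 0.3% FBS (serum-starved) or received 15% FBS for 45 min after starvation (serum-stimulated). A single siRNA sequence was used against all Lap2 isoforms, so that effects of the sequence itself and of the loss of Lap2 cannot be told apart. Total counts per library ranged from 18026298 to 26265253, with medians of 20693718 and 23665623 in starved and stimulated control siRNA treated cells and of 18315374 and 20726653 in starved and stimulated Lap2-depleted cells. Nothing in the sources used here says that the replicates came from separate cultures, and the p-values measure the spread between these samples, which may be technical.

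Mammalian cells take up iron bound to transferrin through the transferrin receptor (Tfrc), move it out of endosomes through the divalent metal transporter (Slc11a2), store it in ferritin, a shell of heavy (Fth1) and light (Ftl1) chains, and release it through ferroportin (Slc40a1), the known iron exporter of vertebrate cells. Heme oxygenase (Hmox1) frees iron from heme. The iron regulatory proteins, encoded by Aco1 and Ireb2, bind a short hairpin in messenger RNAs, the iron-responsive element, when iron is scarce. In the 5′ untranslated region of ferritin and ferroportin messages this binding blocks translation, and in the 3′ untranslated region of the Tfrc message it protects the RNA from decay.

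The hairpins are shown first for the 4 of the 8 genes in which the pattern was found. Untranslated regions of GENCODE M21 transcripts (mm10) were searched for a C, a stem of 5 paired bases and the 6-base loop CAGTGN, and each match was written as a window of 30 bases. In the lines below, read 5′ to 3′ on the strand of the gene, the capitals mark the loop.
Slc40a1, 5′ UTR, chr1:45925465-45925494, minus strand: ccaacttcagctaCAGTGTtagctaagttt
Fth1, 5′ UTR, chr19:9982731-9982760, plus strand: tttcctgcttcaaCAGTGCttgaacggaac
Ftl1, 5′ UTR, chr7:45459779-45459808, minus strand: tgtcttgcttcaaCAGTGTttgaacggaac
Tfrc, 3′ UTR, chr16:32631218-32631247, plus strand: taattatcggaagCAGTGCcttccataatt
Tfrc, 3′ UTR, chr16:32631597-32631626, plus strand: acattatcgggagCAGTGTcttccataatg
Tfrc, 3′ UTR, chr16:32631662-32631691, plus strand: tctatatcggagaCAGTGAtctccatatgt
Tfrc, 3′ UTR, chr16:32631709-32631738, plus strand: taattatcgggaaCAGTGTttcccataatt

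Of the 8 genes, 4 held the pattern, 3 of them in the 5′ UTR, and Tfrc held it 4 times in the 3′ UTR. Across 21901 protein-coding genes, 0.731% held a match in an untranslated region (0.142% in the 5′ UTR and 0.589% in the 3′ UTR). A match is a description of the sequence, and RNA-seq counts measure the amount of a message and not its translation.

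The siRNA target was examined first. Tmpo had 2775, 2805 and 2885 normalized counts in starved control siRNA treated cells and 981.5, 1175 and 1093 in starved Lap2-depleted cells. After serum stimulation it had 3264, 3243 and 3019 in controls and 767.0, 745.4 and 606.7 in Lap2-depleted cells. Normalized counts are counts scaled by the trimmed mean of M-values (TMM) library size to the mean size of the 12 libraries. Tmpo RNA was thus at 38.4% of control in 0.3% FBS and 22.2% in 15% FBS (groups without overlap, adjusted p = 8.7e-16 and 3.8e-19, edgeR quasi-likelihood test with Benjamini-Hochberg adjustment over 18668 genes, as for all adjusted p-values below unless DESeq2 is named). With Lap2 siRNA Tmpo was lower after serum than before (log2FC -0.62, adjusted p = 1.9e-07), so that the depletion was deeper in 15% FBS, and the difference of the serum responses was -0.79 (SE 0.11, adjusted p = 3e-06). Gapdh, a glycolytic enzyme often used as a reference, did not pass 0.05 in any of the 5 contrasts (adjusted p from 0.084 to 0.48), although DESeq2 called it in 3 of them, total counts in 2, including 0.3% FBS (log2FC 0.19, adjusted p = 0.013), and other alternatives in 3.

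The ferritin messages were by far the most abundant of the 8. Per kilobase of exon, the mean over the 12 libraries was 19004 normalized counts for Ftl1 and 18061 for Fth1, which placed them 34th and 37th among 18603 genes with a length. Hmox1 followed with 2384 per kilobase, then Aco1 with 382.8, Ireb2 with 267.1, Tfrc with 250.8 and Slc11a2 with 79.3. Slc40a1 was the lowest, at 13.9 per kilobase, and ranked 11998th. The order held over all libraries and not in each group. Tfrc, at 343.0 per kilobase, was above Ireb2, at 247.5, in stimulated controls, and Fth1, at 20542, was above Ftl1, at 19756, in starved Lap2-depleted cells. The ranks and order of Ftl1 and Fth1 rest on the exon lengths used, which join all annotated transcripts. They were 2390 bases for Fth1, its whole span, and 1340 for Ftl1, whose longest coding transcript has 968. Without division by length Fth1 was above Ftl1 in each group, with 37350 and 23611 normalized counts in starved controls. The exporter was thus present at a low level next to storage and uptake genes in these fibroblasts, even with its rise included.

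**Figure D1:**
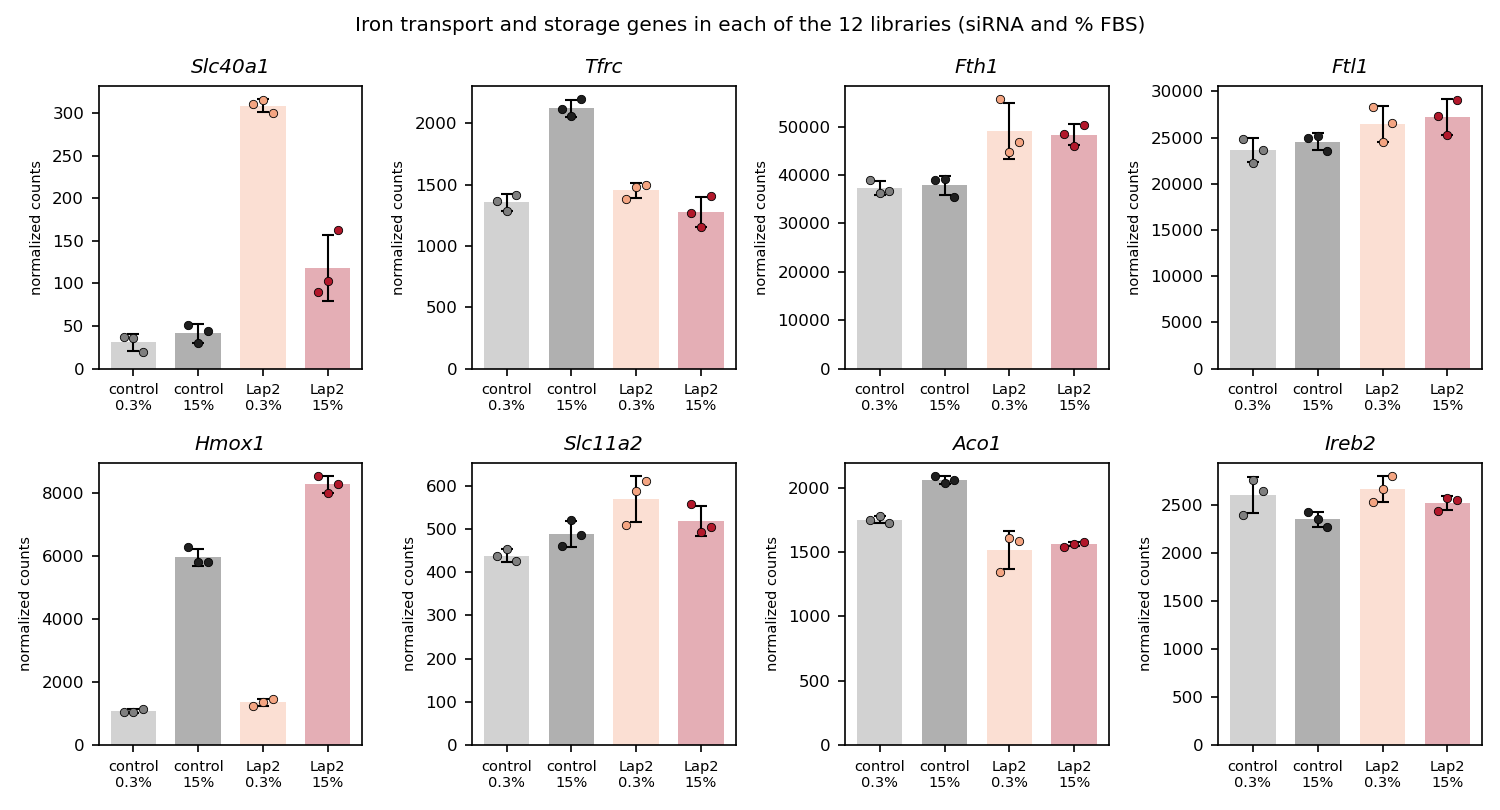
Normalized counts (linear axes from 0, a separate scale for each gene) of the 8 genes by siRNA and serum. Bars are means of 3 libraries, error bars are SD and points are single libraries, and Slc40a1 stands at 300.8 to 315.2 in starved Lap2-depleted cells against 19.4 to 37.3 in starved controls.

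Slc40a1 (ENSMUSG00000025993, chr1:45908068-45926523, minus strand) encodes ferroportin. It had 38, 41 and 18 reads in starved control siRNA treated cells, or 37.3, 35.5 and 19.4 normalized counts, and 58, 30 and 39 reads after serum, or 51.5, 29.7 and 43.5. In starved Lap2-depleted cells it had 338, 303 and 292 reads, or 310.3, 315.2 and 300.8 normalized counts. In stimulated Lap2-depleted cells it had 78, 97 and 168 reads, or 90.1, 102.9 and 162.3 normalized counts. All 6 Lap2-depleted libraries lay above all 6 control libraries, and the 2 control groups overlapped.

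The means of Slc40a1 were 30.7 ± 9.85 and 41.5 ± 11.0 normalized counts in starved and stimulated controls, and 308.8 ± 7.34 and 118.4 ± 38.5 in starved and stimulated Lap2-depleted cells (SD, n = 3). The Lap2-depleted mean was 10.0-fold the control mean in 0.3% FBS (log2FC 3.3, SE 0.21) and 2.85-fold in 15% FBS (log2FC 1.51, SE 0.22). In order of level, starved Lap2-depleted cells stood above stimulated Lap2-depleted cells, and both stood above the controls, which did not separate from each other. In Lap2-depleted cells the level after 45 min of serum was 38.4% of the starved level (log2FC -1.37, SE 0.17), while with control siRNA the log2FC for serum was 0.42 (SE 0.26). The difference of these serum responses was -1.79 (SE 0.32). In bulk RNA, a change in the share of cells that carry a message and a change in the RNA per cell cannot be told apart. Leaving out single libraries moved the log2FC in 0.3% FBS between 3.10 and 3.46 and that in 15% FBS between 1.20 and 1.70. The log2FC for serum moved between 0.21 and 0.62 with control siRNA and between -1.69 and -1.21 with Lap2 siRNA, and the difference of the serum responses between -2.10 and -1.59. With total counts the log2FC for serum with control siRNA was 0.21.

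Macrophages are known for high ferroportin, and markers of several cell types were therefore read in the same libraries. All 12 fibroblast markers were measured, with Fn1 the most abundant. Summed over the list they stood at 919721 ± 11841 and 985518 ± 48349 normalized counts in starved and stimulated controls and at 615174 ± 58243 and 717297 ± 43381 with Lap2 siRNA (SD, n = 3). With Lap2 siRNA 9 of the 12 were lower and 2 higher in 0.3% FBS, and 10 were lower in 15% FBS. Of all genes tested, 18.6% were lower and 17.8% higher in 0.3% FBS, and 12.1% were lower in 15% FBS. In 0.3% FBS the log2FC was -1.67 for Col3a1 (adjusted p = 1.6e-18), 0.37 for Fn1 (9.2e-05) and 0.46 for S100a4 (0.0012), and Pdgfrb did not pass (0.15, 0.079). Of 9 macrophage markers, Itgam had 0 reads in all 12 libraries, and Adgre1 and Fcgr1 had group means under 1 normalized count. The summed macrophage list was 105.4 ± 4.94 and 133.9 ± 5.59 in starved and stimulated controls and 171.1 ± 16 and 191.2 ± 6.88 with Lap2 siRNA, and its most abundant gene over all libraries was Cd14, at 29.6, 64.9, 85.2 and 113.6 in the same order (log2FC for Lap2 siRNA 1.51 in 0.3% FBS and 0.81 in 15% FBS, adjusted p = 2e-07 and 0.00064). Cd68, the next, was at 45.6, 35.1, 44.9 and 32.4. Csf1r rose from 8.43 to 23.5 in 0.3% FBS (log2FC 1.46, adjusted p = 0.0085), and in 15% FBS its log2FC was 1.05 (adjusted p = 0.092). The other tested macrophage markers did not pass, with log2FC in 0.3% FBS of -0.20 for Ptprc, -0.02 for Cd68, -0.33 for Aif1 and -0.09 for Lyz2 (adjusted p from 0.64 to 0.97). The most abundant erythroid, epithelial, endothelial, adipocyte and muscle markers were Epor, Krt14, Tek, Pparg and Des, with means from 4.54 to 12.3 over all libraries, and no reads at all were counted for Krt18, Plin1, Myod1, Myog and Ckm. In 0.3% FBS the summed adipocyte list was 6.73 ± 1.24 in controls and 20.2 ± 2.32 in Lap2-depleted cells (SD, n = 3), and in 15% FBS 3.5 ± 2.08 and 13.3 ± 6.9. Pparg was higher in 0.3% FBS (log2FC 1.39, adjusted p = 0.038) and did not pass in 15% FBS (log2FC 1.68). The other 4 sums were lower with Lap2 siRNA in 0.3% FBS. They went from 14.3 to 10.4 for the erythroid, 31.3 to 19.2 for the epithelial, 22.4 to 12.1 for the endothelial and 11.7 to 6.06 for the muscle list. The part of these differences in the values of Slc40a1 was not tested.

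Beside Slc40a1, 7 genes were left for testing, and all 7 passed the filter on low counts (a count above 1 in 3 or more libraries). With Lap2 siRNA in 0.3% FBS, 5 of the 7 had an adjusted p under 0.05, against 36.5% of all genes tested, with 4 higher (background 17.8%) and 1 lower (18.6%). In 15% FBS 4 of 7 passed, against 23.4% of all genes, with 2 higher (11.4%) and 2 lower (12.1%). The median log2FC of the 7 was 0.17 in 0.3% FBS and 0.10 in 15% FBS, beside 0.01 and 0.02 over all genes. The scaling matters for such counts of direction. With library sizes set to total counts in place of TMM, the median log2FC of all genes moved by 0.11 in 0.3% FBS and 0.08 in 15% FBS, and the split of calls over all genes went from 3330 higher and 3480 lower to 4692 and 2638 in 0.3% FBS, and from 2125 and 2250 to 3471 and 1678 in 15% FBS. Among the 7 genes, calls for Lap2 siRNA then numbered 5 up and 0 down in starved cells, with 4 up and 2 down in stimulated cells.

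**Figure D2:**
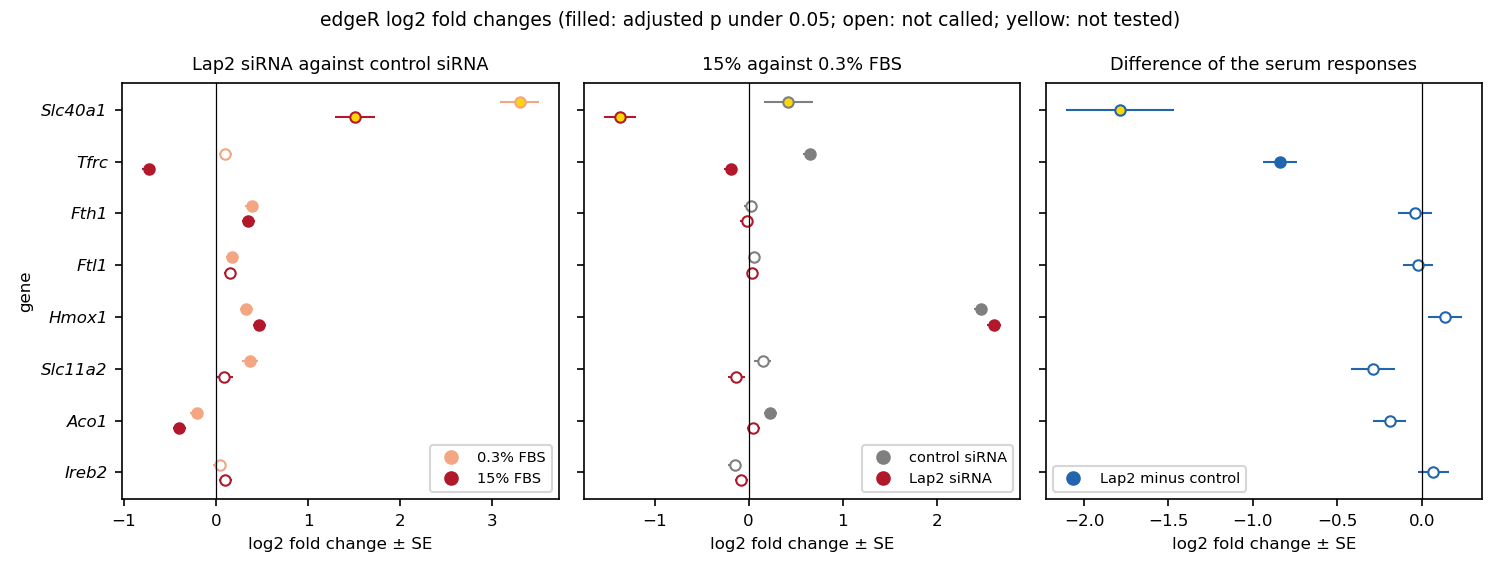
log2 fold changes with SE (edgeR) of the 8 genes for Lap2 siRNA against control siRNA, for 15% against 0.3% FBS, and for the difference of the serum responses. Filled points passed an adjusted p of 0.05, open points did not, and yellow points (Slc40a1) were not tested. Tfrc was the single tested gene with a filled point in the third panel, at -0.84.

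Tfrc (ENSMUSG00000022797, chr16:32608920-32632794, plus strand) is the receptor that carries transferrin-bound iron into the cell. In control siRNA treated cells it had 1365, 1283 and 1413 normalized counts when starved and 2113, 2057 and 2194 after serum. In Lap2-depleted cells it had 1383, 1478 and 1499 when starved and 1267, 1157 and 1403 after serum. The stimulated controls stood above the 9 other libraries, and the other groups overlapped with a neighbour in the order of levels. Serum raised Tfrc 1.57-fold with control siRNA (log2FC 0.65, SE 0.07, adjusted p = 4.7e-09), and with Lap2 siRNA the log2FC was -0.19 (SE 0.07, adjusted p = 0.046). This last call was lost with only the 2 groups compared (adjusted p = 0.069) and when any 1 of 6 libraries was left out, namely stimulated control replicates 2 and 3 (0.058 and 0.055), starved Lap2 replicates 2 and 3 (0.081 and 0.088) and stimulated Lap2 replicates 1 and 2 (0.11 and 0.29). The difference of the serum responses was -0.84 (SE 0.10, adjusted p = 3.1e-07), and it stayed between -0.92 and -0.77 when single libraries were left out. In 15% FBS Tfrc was therefore at 60.1% of control with Lap2 siRNA (log2FC -0.73, SE 0.07, adjusted p = 1.2e-09), while in 0.3% FBS the log2FC was 0.10 (SE 0.07, adjusted p = 0.29), or 0.21 with total counts (adjusted p = 0.018).

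Slc11a2 (ENSMUSG00000023030, chr15:100387898-100425072, minus strand), which moves iron across the endosomal membrane, had 437.7, 453.1 and 425.0 normalized counts in starved controls and 509.6, 588.8 and 610.8 in starved Lap2-depleted cells. After serum it had 459.6, 520.3 and 486.2 in controls and 557.9, 494.1 and 505.3 in Lap2-depleted cells. The starved groups did not overlap, and the stimulated groups did. It rose with Lap2 siRNA in 0.3% FBS (1.30-fold, log2FC 0.37, SE 0.09, adjusted p = 0.0011), and in 15% FBS the log2FC was 0.09 (SE 0.09, adjusted p = 0.58). The difference of its serum responses was -0.29 (SE 0.13, adjusted p = 0.15). Without starved Lap2 replicate 1 this difference was -0.39 and passed (adjusted p = 0.02).

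Fth1 (ENSMUSG00000024661, chr19:9982703-9985092, plus strand) encodes the ferritin heavy chain, which oxidizes iron for storage. It had 39079, 36243 and 36729 normalized counts in starved controls and 38919, 39104 and 35575 in stimulated controls. In Lap2-depleted cells it had 55648, 44741 and 46894 when starved and 48536, 46121 and 50393 after serum. All 6 Lap2-depleted libraries were above all 6 control libraries, and starved Lap2 replicate 1 was the highest of the 12. Fth1 rose 1.31-fold in 0.3% FBS (log2FC 0.39, SE 0.07, adjusted p = 1.6e-05) and 1.28-fold in 15% FBS (log2FC 0.35, SE 0.07, adjusted p = 0.00016). For serum the log2FC was 0.02 in controls and -0.02 in Lap2-depleted cells (SE 0.07 for both, adjusted p = 0.88 and 0.85).

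Ftl1 (ENSMUSG00000050708, chr7:45457944-45459884, minus strand), the light chain, had 24874, 22277 and 23682 normalized counts in starved controls and 28288, 24495 and 26638 in starved Lap2-depleted cells. After serum it had 24976, 25184 and 23524 in controls and 27351, 25235 and 29065 in Lap2-depleted cells. The starved groups overlapped, and the stimulated groups did not. The log2FC for Lap2 siRNA was 0.17 in 0.3% FBS (SE 0.06, adjusted p = 0.045) and 0.15 in 15% FBS (SE 0.06, adjusted p = 0.10). The call in 0.3% FBS was lost without starved control replicate 2 (0.14) or 3 (0.062), starved Lap2 replicate 3 (0.071), any of the stimulated control replicates (0.066, 0.06 and 0.051) or stimulated Lap2 replicate 1 (0.057), with filterByExpr (0.055) and with only the 2 groups compared (0.13). In 15% FBS Ftl1 was called with total counts (0.0059), with only the 2 groups compared (0.033) and without starved Lap2 replicate 1 (0.029).

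Ftl1 shares sequence with a copy on chromosome 13, Ftl1-ps1, which had 3735 to 5583 reads per library. Of 919 words of 50 bases in the Ftl1 transcript, 675 (73.4%) also occur in that of Ftl1-ps1, and the split of reads between them is uncertain. With both summed before the fit, the log2FC in 0.3% FBS was 0.16 (adjusted p = 0.058). Gm10252, on the opposite strand, overlaps 355 exon bases of Ftl1 and had 44 to 268 reads. The use of strand in counting is not given in the sources used here. The level of Fth1 over that of Ftl1, each per kilobase of exon, was 0.888 ± 0.0221 and 0.864 ± 0.0141 in starved and stimulated controls and 1.04 ± 0.0592 and 0.997 ± 0.0264 with Lap2 siRNA (SD, n = 3). The ratio was thus higher in the means of both Lap2-depleted groups, and it was not tested. The size of the ratio depends on the exon lengths used, while its fold change between groups does not.

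Hmox1 (ENSMUSG00000005413, chr8:75093621-75100589, plus strand) encodes the inducible heme oxygenase. In control siRNA treated cells it had 1054, 1034 and 1146 normalized counts when starved and 6285, 5806 and 5830 after serum. In Lap2-depleted cells it had 1231, 1380 and 1466 when starved and 8541, 8012 and 8312 after serum. No group overlapped with another. Serum raised Hmox1 5.54-fold with control siRNA (log2FC 2.47, SE 0.07, adjusted p = 1.9e-24) and 6.10-fold with Lap2 siRNA (log2FC 2.61, SE 0.07, adjusted p = 4.8e-25). Lap2 siRNA raised it 1.26-fold in 0.3% FBS (log2FC 0.33, SE 0.07, adjusted p = 0.00025) and 1.39-fold in 15% FBS (log2FC 0.47, SE 0.07, adjusted p = 9.8e-07). The serum responses differed by 0.14 (SE 0.10, adjusted p = 0.41).

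Aco1 (ENSMUSG00000028405, chr4:40143081-40198338, plus strand) encodes the cytosolic aconitase that becomes iron regulatory protein 1 when it loses its iron-sulfur cluster. In control siRNA treated cells it had 1750, 1779 and 1725 normalized counts when starved and 2090, 2034 and 2055 after serum. In Lap2-depleted cells it had 1341, 1608 and 1584 when starved and 1542, 1565 and 1579 after serum. Every Lap2-depleted library was below every control library. Aco1 fell with Lap2 siRNA in 15% FBS to 75.8% of control (log2FC -0.40, SE 0.07, adjusted p = 3.2e-05) and in 0.3% FBS to 86.3% (log2FC -0.21, SE 0.07, adjusted p = 0.013). The call in 0.3% FBS was lost without starved Lap2 replicate 1 (log2FC -0.12, adjusted p = 0.13), without starved control replicate 2 (-0.18, 0.078) and with total counts as library sizes (-0.10, 0.26). Serum raised Aco1 with control siRNA (log2FC 0.23, SE 0.07, adjusted p = 0.0074), a call that was lost with total counts (0.03) and with upper-quartile scaling (0.14). With Lap2 siRNA the log2FC for serum was 0.05 (adjusted p = 0.65), and the difference of the serum responses was -0.19 (adjusted p = 0.24), or -0.29 (adjusted p = 0.0072) without starved Lap2 replicate 1.

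Ireb2 (ENSMUSG00000032293, chr9:54863789-54912530, plus strand), which encodes iron regulatory protein 2, had 2391 to 2756 normalized counts in starved controls, 2266 to 2423 in stimulated controls, 2529 to 2798 in starved Lap2-depleted cells and 2438 to 2567 in stimulated Lap2-depleted cells. Its group means ranged from 2346 to 2663. It passed in none of the 5 contrasts (adjusted p from 0.097 to 0.72). Upper-quartile scaling and total counts called it lower after serum in both siRNA groups, as did leaving out starved control replicate 1 with control siRNA (log2FC -0.19, adjusted p = 0.033), and total counts also called it higher with Lap2 siRNA in 15% FBS (log2FC 0.19, adjusted p = 0.033). With total counts the log2FC after serum was -0.35 in controls and -0.31 in Lap2-depleted cells, where the median of all genes moved by -0.2 and -0.23.

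For serum stimulation as such, 3 of the 7 genes passed with control siRNA, against 29.5% of all genes, and all 3 were higher (background 15.6% higher and 13.9% lower). With total counts these genes gave 2 higher and 2 lower, and with upper-quartile scaling 2 higher and 1 lower. With Lap2 siRNA 2 of 7 passed, against 33.2%, with Hmox1 higher (18.3%) and Tfrc lower (14.9%). In the difference of the serum responses 1 of 7 passed, against 13.6%, and it was the lower response of Tfrc (background 7.09% higher and 6.51% lower). The median log2FC of the 7 in these contrasts was 0.15, -0.02 and -0.04, beside -0.01, 0 and 0.02 over all genes. The split of calls over all genes was 2915 higher and 2597 lower for serum with control siRNA, and it became 1632 and 5847 with total counts and 2183 and 3878 with upper-quartile scaling. With Lap2 siRNA it was 3420 and 2777, and it became 1658 and 5951 with total counts and 2383 and 3942 with upper-quartile scaling. Under total counts all 7 genes passed for serum with Lap2 siRNA, with Hmox1 higher and the other 6 lower.

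The wider set of iron genes comprised 84 genes in 10 lists, of which 73 passed the filter. Of the 11 that did not, Hamp, which encodes the hormone hepcidin, Hfe2, Bmp2, Cd163 and Ftmt had 0 reads in all libraries, and none of the other 6 exceeded 3 reads in a library. With Lap2 siRNA in 0.3% FBS, 25 of the 73 were higher and 10 lower (47.9% in all, beside 36.5% of all genes). In 15% FBS 21 were higher and 9 lower (41.1%, beside 23.4%). The median log2FC of the 73 was 0.13 and 0.11. With total counts the split became 37 higher and 5 lower in 0.3% FBS and 32 and 4 in 15% FBS. Of the calls, 27 of 35 in 0.3% FBS and 19 of 30 in 15% FBS were made under every alternative fitted. List genes said below to have risen or fallen were called under every alternative fitted unless a loss is given.

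**Figure D3:**
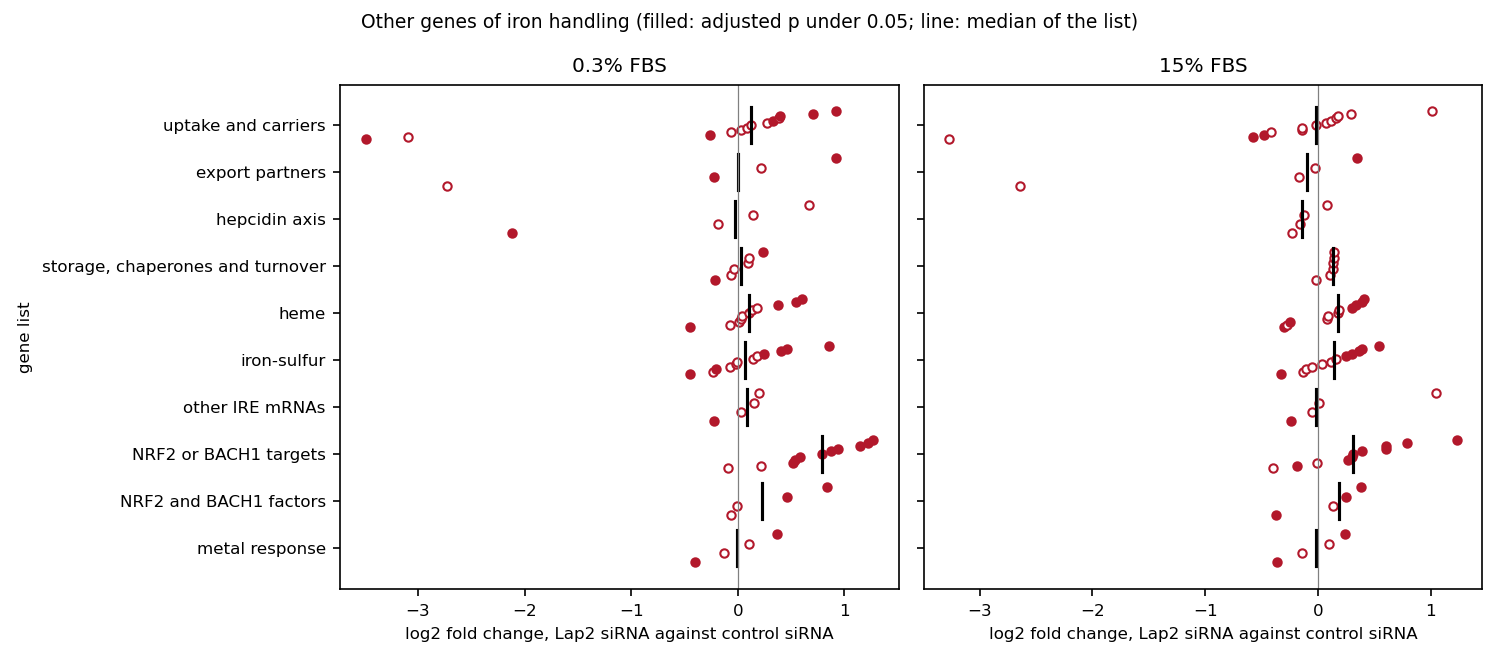
log2 fold changes for Lap2 siRNA against control siRNA of the 73 other iron genes by list, in 0.3% FBS (left) and 15% FBS (right). Filled points passed an adjusted p of 0.05, and black lines are list medians. The targets of NRF2 or BACH1 have the highest median in both panels (0.79 and 0.31), and the points below -2 are genes with group means under 50 normalized counts.

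Of the 10 lists, targets of NRF2 or BACH1, the activator and the heme-sensitive repressor known to control Hmox1 and the ferritin genes, had the highest share of calls in both serum conditions (81.8%, beside 36.5% of all genes in 0.3% FBS and 23.4% in 15% FBS). Of 11 such genes outside the 8, 9 were higher and 0 lower in 0.3% FBS, with a median log2FC of 0.79, and the counts were 9 to 10 higher and 0 lower under the other scalings tried. In 15% FBS 8 were higher and 1 lower, with a median of 0.31, and with total counts 8 and 0. Gclc, which makes the rate-limiting subunit for glutathione synthesis, went from 323.0 ± 16 to 756.1 ± 100.7 normalized counts in 0.3% FBS (SD, n = 3, log2FC 1.22, SE 0.11, adjusted p = 6.4e-11) and had a log2FC of 0.79 in 15% FBS (adjusted p = 1.4e-06). Gsr, glutathione reductase, rose by 0.94 in 0.3% FBS (SE 0.10, adjusted p = 6.7e-09). Nqo1, a quinone reductase, rose by 1.15 in 0.3% FBS (SE 0.10, adjusted p = 4.2e-11), and in 15% FBS its log2FC was -0.01 (adjusted p = 0.98). Srxn1, sulfiredoxin, rose by 0.60 in 15% FBS (SE 0.07, adjusted p = 1.3e-08), and Osgin1 rose by 1.23 (SE 0.14, adjusted p = 2.7e-08). Me1, malic enzyme, was the 1 lower gene in 15% FBS (log2FC -0.19, adjusted p = 0.044), a call lost without stimulated control replicate 1 or 2, without stimulated Lap2 replicate 1 or 2, with total counts, without the filter and with a replicate block.

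Of the 4 factors of this group, 2 were higher and 0 lower in 0.3% FBS, and 2 were higher and 1 lower in 15% FBS (50% and 75%, beside 36.5% and 23.4% of all genes). Nfe2l2, which encodes NRF2, rose by 0.46 in 0.3% FBS and 0.38 in 15% FBS (SE 0.06 for both, adjusted p = 1.3e-07 and 7.7e-06), and Mafg, a small partner protein, rose by 0.84 in 0.3% FBS (SE 0.08, adjusted p = 1.8e-10), with a log2FC of 0.13 in 15% FBS (adjusted p = 0.26). Keap1, which marks NRF2 for degradation, had a log2FC of -0.01 in 0.3% FBS (adjusted p = 0.93) and 0.25 in 15% FBS (adjusted p = 0.012), a call lost without stimulated control replicate 1 or stimulated Lap2 replicate 1 or 2. With serum it fell by 0.79 on the log2 scale with control siRNA and by 0.53 with Lap2 siRNA (SE 0.07 for both, adjusted p = 9.5e-11 and 3.9e-07). Bach1 had means of 961.1 ± 30.6 and 924.7 normalized counts in starved control and Lap2-depleted cells, and 2707 and 2094 after serum. It rose with serum by 1.49 with control siRNA (SE 0.07, adjusted p = 8.5e-18) and by 1.18 with Lap2 siRNA (SE 0.07, adjusted p = 7.5e-15). In 15% FBS it was lower with Lap2 siRNA (log2FC -0.37, SE 0.07, adjusted p = 0.00013).

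Since 9 of the 11 targets were higher in 0.3% FBS, promoter sequences are shown. RefSeq promoters of GRCm38.p6, from 250 bases before to 50 after the start site, were searched on both strands for the core of the antioxidant response element, TGACNNNGC, which can overlap an AP-1 site. It was found in 14% of 27025 genes. Of the 11 targets, 9 had an entry (Gclc and Gsr did not) and 6 of these held a match. The windows below run 5′ to 3′ on the strand of the gene, with the match in capitals.
Gclm, chr3:122245413-122245441, plus strand: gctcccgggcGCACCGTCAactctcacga
Txnrd1, chr10:82859104-82859132, plus strand: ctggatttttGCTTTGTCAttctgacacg
Srxn1, chr2:152105542-152105570, plus strand: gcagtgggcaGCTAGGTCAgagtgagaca
Prdx1, chr4:116685456-116685484, plus strand: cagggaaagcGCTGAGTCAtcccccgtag
G6pdx, chrX:74428919-74428947, minus strand: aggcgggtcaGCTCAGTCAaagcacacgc
Me1, chr9:86695902-86695930, minus strand: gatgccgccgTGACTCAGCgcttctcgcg

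The first 5 of these genes rose with Lap2 siRNA in 0.3% FBS, by 0.54 (Gclm), 0.87 (Txnrd1), 0.58 (Srxn1), 0.52 (Prdx1) and 0.79 (G6pdx), while Me1 had a log2FC of -0.09 there. Nqo1, Slc7a11 and Osgin1 held no match in these windows, and neither did the 5 of the 8 iron genes that had an entry (Tfrc, Fth1, Ftl1, Aco1 and Ireb2). Slc40a1, Hmox1 and Slc11a2 had no entry. Sequence beyond these windows was not searched, so that a gene without a match here may hold one farther away.

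Uptake and carrier genes gave 4 higher and 2 lower of 13 tested in 0.3% FBS (46.2%, beside 36.5% of all genes, median log2FC 0.12), and 0 higher and 2 lower in 15% FBS (15.4%, beside 23.4%, median -0.02, with 4 genes at an unadjusted p under 0.05). With total counts the splits were 6 and 1, and 2 and 2, and the median in 15% FBS was 0.06. Steap1 and Steap3, of the STEAP family that includes metalloreductases, rose in 0.3% FBS by 0.92 (SE 0.14, adjusted p = 3.5e-06) and 0.40 (SE 0.06, adjusted p = 3.1e-06). Slc25a37, which imports iron into mitochondria, rose by 0.71 (SE 0.10, adjusted p = 3.1e-07). Lrp1, a large scavenger receptor that also takes up heme bound to hemopexin, fell in 15% FBS by 0.58 on the log2 scale (SE 0.07, adjusted p = 2.2e-07), with a log2FC of -0.26 in 0.3% FBS (adjusted p = 0.0054) that lost its call without starved control replicate 1 and with total counts. Of 4 tested partners of export, 1 was higher and 1 lower in 0.3% FBS (50%, beside 36.5% of all genes) and 1 was higher in 15% FBS (25%, beside 23.4%). With total counts the split of these 4 in 0.3% FBS was 2 higher and 0 lower. Flvcr1, a heme exporter, rose by 0.92 in 0.3% FBS (SE 0.09, adjusted p = 1e-09) and 0.35 in 15% FBS (SE 0.09, adjusted p = 0.0035). Abcg2, a transporter that exports porphyrins among other substrates, had a log2FC of -0.22 in 0.3% FBS (adjusted p = 0.019), a call lost without starved control replicate 2 or 3, without starved Lap2 replicate 3 and with total counts. Cp, the ferroxidase ceruloplasmin, had log2FC of 0.22 and -0.17 (adjusted p = 0.08 and 0.26).

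Of 11 heme genes 3 were higher and 1 lower in 0.3% FBS (36.4%, beside 36.5% of all genes), with counts of 4 and 2 in 15% FBS (54.5%, beside 23.4%). With total counts the splits were 4 and 1, and 6 and 0. Without stimulated control replicate 3 alone, the calls of Cpox (higher), Ppox (lower) and Blvrb (lower) in 15% FBS were all lost. Alas1, the first and rate-limiting enzyme of heme synthesis outside red cells, rose by 0.38 in 0.3% FBS (SE 0.08, adjusted p = 0.00039) and by 0.41 in 15% FBS (SE 0.09, adjusted p = 0.00044). Alad, the next enzyme, rose by 0.55 (SE 0.09, adjusted p = 5.7e-06) and 0.39 (SE 0.09, adjusted p = 0.0013). Cpox, a later enzyme of the pathway, rose by 0.60 in 0.3% FBS (SE 0.11, adjusted p = 1.9e-05). Blvrb, a biliverdin reductase, fell by 0.45 on the log2 scale in 0.3% FBS (SE 0.08, adjusted p = 4.1e-05). Blvra, the other biliverdin reductase of the list, had log2FC of 0.11 in 0.3% FBS and 0.08 in 15% FBS (adjusted p = 0.53 and 0.74). The median log2FC of the list was 0.11 and 0.18.

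Iron-sulfur cluster genes gave 4 higher and 2 lower of 12 in 0.3% FBS, with counts of 5 and 1 in 15% FBS (50% in both, beside 36.5% and 23.4% of all genes, medians 0.06 and 0.14). With total counts the splits were 6 and 1, and 6 and 0. Glrx5, a monothiol glutaredoxin that passes clusters on, rose by 0.46 and 0.39 (SE 0.08 for both, adjusted p = 2.6e-05 and 0.00044), and Isca2 fell by 0.45 on the log2 scale in 0.3% FBS (SE 0.12, adjusted p = 0.0022). Of storage, chaperone and turnover genes, 1 was higher and 1 lower of 6 in 0.3% FBS (33.3%, beside 36.5% of all genes, with 3 higher and 0 lower under total counts) and 0 passed in 15% FBS with edgeR (1 at an unadjusted p under 0.05), while DESeq2 called 1 higher and total counts 4. The calls in 0.3% FBS, of Nedd4l (higher) and Pcbp2 (lower), were both lost without starved control replicate 2. Ncoa4, the receptor that delivers ferritin to lysosomes, had a log2FC of -0.06 in 0.3% FBS and 0.14 in 15% FBS (adjusted p = 0.62 and 0.23).

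For serum, the 73 genes gave 19 higher and 7 lower with control siRNA (35.6%, beside 29.5% of all genes) and 19 higher and 17 lower with Lap2 siRNA (49.3%, beside 33.2%). With total counts these splits turned to 8 higher and 18 lower and to 5 and 35, and the direction of the set therefore depended on the scaling. In the difference of the serum responses 4 were higher and 12 lower (21.9%, beside 13.6%), and 4 higher and 14 lower with total counts. Nqo1 rose with serum by 0.41 with control siRNA (adjusted p = 0.0022, lost with total counts) and fell by 0.75 on the log2 scale with Lap2 siRNA (adjusted p = 2.4e-07).

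The place of Slc40a1 on chromosome 1 was examined through its nearest tested genes, 3 on each side. Gm5526, 50.3 kb away at lower coordinates, fell with Lap2 siRNA in both conditions (log2FC -1.24, SE 0.17, adjusted p = 5.5e-07 in 0.3% FBS, and -1.27, SE 0.18, adjusted p = 1.1e-06 in 15% FBS). Wdr75, 84.4 kb away, rose by 0.46 in 0.3% FBS (SE 0.08, adjusted p = 1.2e-05), with 0.14 in 15% FBS (adjusted p = 0.21). Col5a2, a fibrillar collagen gene 404.8 kb away, fell by 0.81 and 0.55 on the log2 scale (SE 0.06 for both, adjusted p = 1.1e-12 and 1.6e-08). On the other side Slc39a10, a zinc transporter 881.0 kb away, rose by 0.22 and 0.24 (SE 0.08 for both, adjusted p = 0.03 and 0.034), and Dnah7b and Gm28151, with means under 20 normalized counts, did not pass. Alternatives were not fitted for the neighbours. The values of these 6 genes stayed below the 3.3 and 1.51 of Slc40a1. Since Slc40a1 was chosen for its rise, this order was set by the choice and says nothing about the locus.

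**Figure D4:**
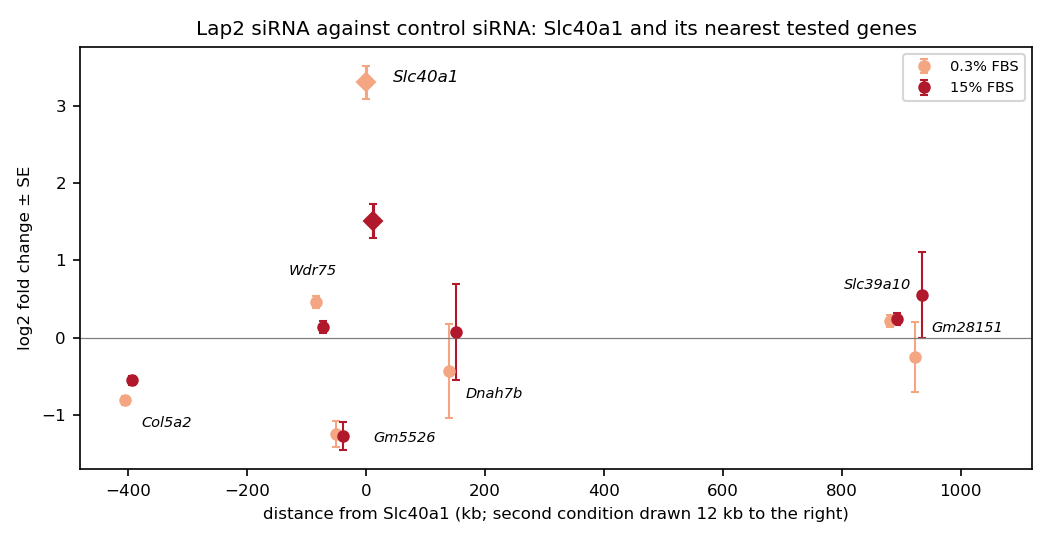
log2 fold change with SE (edgeR) for Lap2 siRNA against control siRNA in 0.3% and 15% FBS, plotted against the distance in kb from Slc40a1, for Slc40a1 (diamonds, a description) and the 3 nearest tested genes on each side (circles). Slc40a1 stands at 3.3 and 1.51, and its neighbours lie between -1.27 and 0.55.

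A likeness in pattern to Slc40a1 was measured for 10448 genes whose mean normalized count was 100 or more. The most alike over the 12 libraries (Pearson's r of log2 CPM, given as a description of points that share groups and depth) was Ints4 (0.981), followed by Nudt9 (0.978), Racgap1 (0.978), Atic (0.977) and Lonp1 (0.976). Nudt9 had 955.8 ± 33.2 and 921.3 ± 61.2 normalized counts in starved and stimulated controls and 2076 ± 52.2 and 1447 ± 162.3 with Lap2 siRNA (SD, n = 3). The most opposite were Pcdhb6 and Adam15 (-0.985 each), Basp1 (-0.980), Lipa (-0.979) and Col3a1 (-0.979). Of the 7 other iron genes, Fth1 had an r of 0.84 with Slc40a1, Slc11a2 0.77, Ftl1 0.64, Ireb2 0.40, Hmox1 -0.05, Tfrc -0.29 and Aco1 -0.71.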

How the data were processed

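RNA-seq counts of 12 NIH 3T3 libraries (4 groups of 3) were used. Per the labels and the study's methods, the authors removed ribosomal RNA, made directional libraries, aligned reads to mm10 with TopHat2, counted reads per gene with HTSeq and deposited the counts without normalization. Strand setting, annotation and tool versions are not given in the sources used here. Groups came from the labels.

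Counts were fitted in R 4.3.3 with edgeR 4.0.16 (TMM, a mean per group, quasi-likelihood test, Benjamini-Hochberg threshold 0.05) on 18668 genes counted above 1 in 3 or more libraries. Each SE is the log2FC over the square root of its F. Libraries held 18026298 to 26265253 counts, and the SE was near 0.07 for the abundant genes. Alternatives were DESeq2 1.42.0, total counts, upper quartile, filterByExpr (13987 genes), no filter (24824), a replicate block, only the 2 groups compared and each library left out. Chosen after seeing the data were Ftl1 summed with Ftl1-ps1 and the list counts under each scaling. On simulated counts of 18668 genes for Lap2 siRNA in 0.3% FBS, 92% of 200 genes changed by a log2FC of 1 and 7 unchanged genes were called. The changed genes were drawn from the better expressed ones. Smaller changes, such as those of the 7 tested genes in that contrast, were not simulated.

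Exon lengths, UTRs and neighbours came from GENCODE M21 and promoters from RefSeq (GRCm38.p6). Of 49412 shared genes, 91.4% had the same position in GENCODE M21. Of the 8 genes Fth1 did not. Named were the 8 genes, Tmpo, Gapdh, in each list up to 3 called genes per direction with the largest log2FC, groups that do not overlap and a mean normalized count of 100 or more, 5 genes most and least like Slc40a1, and 3 neighbours per side. Other genes were named after their values were seen. Genes and lists were chosen with earlier results of these data known. Some genes of the lists are not reported here.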

Additional observations from a re-analysis of the deposited data

Results flagged for a closer look

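For Tfrc, Tmpo and 16 of the 73 other iron genes the response to serum differed with the siRNA, as the interaction term of the edgeR fit showed (adjusted p under 0.05). The 16 were 21.9% of the 73, beside 13.6% of all genes. The difference (log2, Lap2 siRNA minus control siRNA) was -0.84 for Tfrc (adjusted p = 3.1e-07) and -0.79 for Tmpo (3e-06). Among NRF2 or BACH1 targets it was -1.16 for Nqo1 (4.3e-07), -0.57 for Txnrd1 (2.9e-05), -0.52 for G6pdx (0.00021), -1.68 for Slc7a11 (0.0034) and 1.01 for Osgin1 (0.00014), with a log2FC for serum of -1.66 with control siRNA and -0.65 with Lap2 siRNA. Among the factors it was -0.72 for Mafg (1.5e-05) and -0.31 for Bach1 (0.038). Among carriers and exporters it was -0.63 for Steap1 (0.034), -0.28 for Steap3 (0.03), -0.55 for Slc25a37 (0.006), -0.32 for Lrp1 (0.033) and -0.57 for Flvcr1 (0.002). Among iron-sulfur genes it was 0.59 for Lyrm4 (0.014), 0.36 for Isca1 (0.028) and -0.45 for Nubp1 (0.016). In the hepcidin axis it was 1.89 for Tmprss6 (0.0014), which had group means under 50 normalized counts.

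The call of Nubp1 was lost without stimulated control replicate 2 or stimulated Lap2 replicate 2 (adjusted p up to 0.07), and that of Lyrm4 without starved control replicate 3 or starved Lap2 replicate 2 or 3 (up to 0.064). The calls of Steap1, Steap3, Lrp1, Isca1 and Bach1 were each lost without any of 4, 5, 7, 8 and 8 single libraries (adjusted p up to 0.12, 0.12, 0.11, 0.12 and 0.12). Leaving out stimulated control replicate 2 alone lost the calls of Steap1, Steap3, Lrp1, Isca1, Nubp1 and Bach1 together. The interaction shares its libraries with the siRNA contrasts.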

How the results depend on the processing

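Over the 8 genes, Tmpo and Gapdh in the 5 contrasts, 868 of 945 alternative values kept their direction and their side of the threshold. Of the rest, 22 lost a call and 30 gained one without a change of sign, and 25 changed sign, some of which also gained a call. Slc40a1 had no threshold, and its values, all among the 868, kept their direction. Some moved by more than 1 SE, such as from -1.37 (SE 0.17) to -1.69 for serum with Lap2 siRNA. The cause of these changes was not tested. Of the 7 tested genes, those called for serum with Lap2 siRNA were 2, and 7 with total counts, 4 with upper quartile, 1 with only the 2 groups compared, and 1 to 2 with a library left out. For Lap2 siRNA in 0.3% FBS leaving out a library gave 3 to 5 (3 without starved control replicate 2, where Ftl1 and Aco1 were lost), and for the interaction 1 to 3 (3 without starved Lap2 replicate 1, where Slc11a2 and Aco1 were gained). Each sign change was of a value not called in the fit reported. For serum with control siRNA, total counts and upper quartile gave -0.19 and -0.08 for Fth1, -0.15 and -0.04 for Ftl1 and -0.14 and -0.03 for Gapdh, and total counts gave -0.05 for Slc11a2 and -0.04 for Tmpo. For serum with Lap2 siRNA they gave -0.19 and -0.07 for Ftl1 and -0.18 and -0.06 for Aco1. With single libraries left out, Fth1 ranged from 0.00 to 0.06 for serum with control siRNA, from -0.10 to 0.06 with Lap2 siRNA (0.01 without stimulated Lap2 replicate 2) and from -0.13 to 0.03 in the interaction. Ftl1 ranged from -0.03 to 0.09 for serum with Lap2 siRNA (-0.02 without stimulated Lap2 replicate 3) and from -0.10 to 0.03 in the interaction (0.00 without starved Lap2 replicate 1 or stimulated control replicate 2). Aco1 ranged from -0.05 to 0.08 for serum with Lap2 siRNA, and Ireb2 from -0.01 to 0.10 in the interaction and for Lap2 siRNA in 0.3% FBS. No pairing by replicate number was seen. In 0 of 18 same-numbered pairs did deviations from the group means correlate above 0.1 (-0.12 to 0.10, beside -0.21 to 0.22 for other pairs). Of 12 libraries, 3 correlated best with their own number. With 3 libraries in each group, a weak effect of a shared culture or batch could go unseen. The replicate block left the counts of called genes among the 7 at 5, 4, 3, 2 and 1 and gave 3281 higher and 3475 lower over all genes for Lap2 siRNA in 0.3% FBS in place of 3330 and 3480. With Slc40a1 at 18 to 58 reads in control libraries, depth limits its fold changes.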

Other observations

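Genes of the metal response were also read. Mt1, a metallothionein, rose with Lap2 siRNA by 0.37 in 0.3% FBS (SE 0.07, adjusted p = 0.00011), with means of 2751 ± 171.6 and 3564 ± 415.1 normalized counts. Slc30a1, a zinc exporter, fell by 0.40 on the log2 scale in 0.3% FBS and by 0.36 in 15% FBS (adjusted p = 0.00029 and 0.0012). All 4 genes of this list rose with serum in control siRNA treated cells (median log2FC 0.39, where 15.6% of all genes were higher), while 3 did with upper-quartile scaling and 1 with total counts. Of the hepcidin axis, 4 of 8 genes passed the filter on low counts. The single call among them for Lap2 siRNA in 0.3% FBS (25%, beside 36.5% of all genes) was Tmprss6, a serine protease that restrains hepcidin signalling, at 47.7 ± 10.5 in controls and 11.1 ± 3.62 normalized counts with Lap2 siRNA (SD, n = 3, log2FC -2.12, adjusted p = 1.1e-06).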
